A study of Homo sapiens with 2 samples.

Results

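The Wnt pathway core and feedback genes were followed by mRNA-seq in HCT116 cells, a human colorectal carcinoma line, with and without depletion of the long noncoding RNA LAST. The set was named by gene symbol and held 10 genes, of which 9 had a record among the 11420 protein-coding gene records of the table (CTNNB1, APC, AXIN1, AXIN2, ZNRF3, RNF43, TCF7, TCF7L2 and NKD1). ASCL2 had no record and was not analysed here. The set was chosen because HCT116 is known to carry mutant beta-catenin, and with earlier results of these data known. Cells were infected with lentiviruses carrying control shRNA or LAST shRNA and harvested 96 hr later. There was 1 library per group and 1 shRNA sequence against LAST in the sequencing, so no difference below has a replicate check, and no SD, test or p-value is given.

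Wnt signalling controls how much beta-catenin a cell keeps. Without a ligand, a destruction complex built on the scaffolds APC and axin lets the kinases CK1 and GSK3 phosphorylate beta-catenin, which is then ubiquitinated and degraded. When the complex is blocked, beta-catenin enters the nucleus, binds TCF factors and switches on targets, among them genes such as AXIN2, ZNRF3, RNF43 and NKD1 that in turn dampen the pathway. This circuit maintains the stem cells of the intestinal crypt, and most colorectal carcinomas switch it on through loss of APC or through changes in CTNNB1 itself.

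The reference codons of the phosphorylated stretch of beta-catenin are shown because HCT116 is known to carry a CTNNB1 allele that lacks a serine of it, while its APC is known to be intact. The run is the GENCODE reference coding sequence, 5′ to 3′, for residues 32 to 45 of beta-catenin, read from the longest coding transcript of CTNNB1 (chromosome 3). The capitals mark the codons of the 4 phosphorylated residues, which lie at positions 33, 37, 41 and 45.
CTNNB1 residues 32 to 45: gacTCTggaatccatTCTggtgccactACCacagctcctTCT
In the 43 coding transcripts annotated for the gene, only a pattern for residues 32 to 37 was searched, and 40 held it. The rest of the stretch was not searched for in them. The FPKM values (fragments per kilobase of transcript scaled to the mapped fragments of the library) are given per gene, so the mutant and the reference allele of CTNNB1 cannot be told apart in them.

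In these libraries the mRNAs of beta-catenin and of most of its regulators differed little between control shRNA and LAST shRNA, whereas 2 feedback genes, AXIN2 and ZNRF3, were higher with LAST shRNA. ZNRF3 was 2.36-fold higher and AXIN2 was 1.89-fold higher. The 7 other genes had log2 ratios between -0.28 and 0.21. Each log2 ratio compares FPKM + 1 between the libraries, LAST shRNA over control shRNA, which shrinks the ratios of genes at low FPKM, and a gene was counted as higher at 0.58 or above and as lower at -0.58 or below, the threshold that the study states for lower genes, used here in both directions. By this count 2 of 9 genes were higher and 0 were lower. Over all 11420 records 6.8% were higher and 5.88% were lower. The median log2 ratio of the 9 genes was 0.14 against 0.01 over all records. With 9 genes and no replicate, these counts describe the 2 libraries and nothing particular to the pathway can be read from them. In bulk RNA, fewer cells that express a gene and less of its RNA per cell cannot be told apart.

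**Figure D1:**
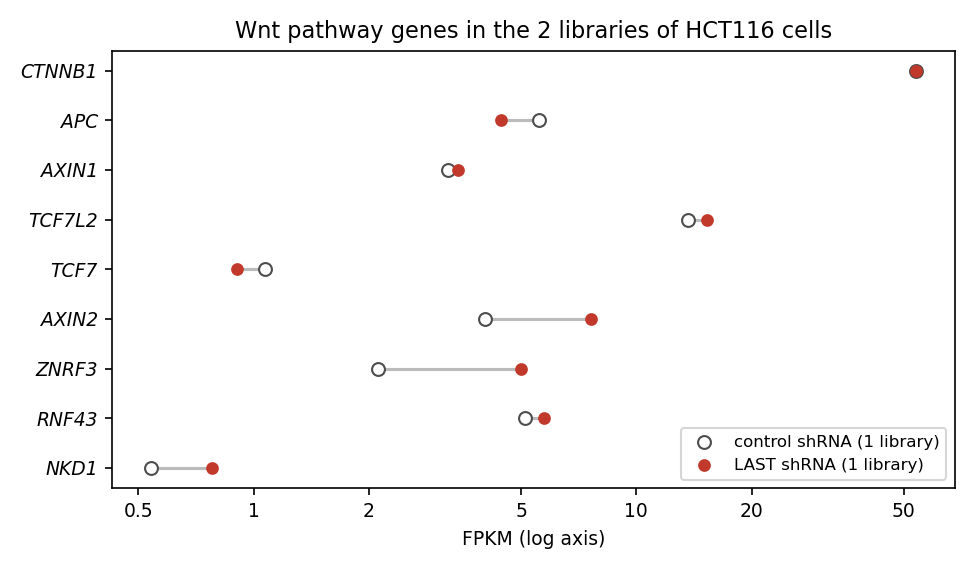
FPKM of the 9 measured Wnt pathway genes on a log axis, with an open point for the control shRNA library and a filled point for the LAST shRNA library of each gene (1 library each, no error bars). The points of CTNNB1 coincide at 53.8 and 53.9, while those of AXIN2 (4.01 and 7.60) and ZNRF3 (2.11 and 4.99) lie farthest apart on the ratio scale.

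CTNNB1, which encodes beta-catenin, was at an FPKM of 53.8 with control shRNA and 53.9 with LAST shRNA (log2 ratio 0.00). It was the most abundant gene of the set, at rank 476 of all 11420 records in the control library and at rank 459 in the LAST shRNA library. The CTNNB1 locus (ENSG00000168036.16_2; hg19 chromosome 3, 41236328 to 41301587, plus strand) overlaps ULK4 on the opposite strand over 13498 bases, and ULK4 was at 0.542 and 0.276. The kit was stranded, but whether strand was used in counting is not given in the sources used here.

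APC, the tumor suppressor scaffold of the destruction complex, was at 5.58 with control shRNA and 4.43 with LAST shRNA, 1.26-fold lower (log2 ratio -0.28). This was the lowest ratio of the set, and 16.3% of all records had a ratio as low or lower, so it lay well inside the spread over genes. AXIN1, the constitutive axin, was at 3.22 and 3.41 (0.06). The beta-catenin mRNA thus stood at 9.64 times that of APC with control shRNA and at 12.2 times with LAST shRNA, and at 16.7 and 15.8 times that of AXIN1. APC is transcribed from hg19 chromosome 5 (112043195 to 112181936, plus strand; ENSG00000134982.16_2) and AXIN1 from chromosome 16 (337440 to 402673, minus strand; ENSG00000103126.14_1). A single exon of 8687 bases holds 81.2% of the longest coding transcript of APC, whereas the largest exon of AXIN1 holds 26.3%.

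TCF7L2 (also called TCF4), the main TCF factor of the colon epithelium, was at 13.6 with control shRNA and 15.3 with LAST shRNA (0.16). TCF7, a factor that is also a Wnt target in colon cancer cells, was at 1.07 and 0.904 (-0.12). TCF7L1, which mostly acts as a repressor, was at 1.94 and 2.39 (0.20), and the fourth member of the family, LEF1, had no record. TCF7L2 made up 81.9% of the FPKM of these 3 factors in the control library and 82.3% in the LAST shRNA library, where the sums were 16.6 and 18.6. The composition of the TCF family was therefore nearly alike in the 2 libraries. TCF7L2 lies on hg19 chromosome 10 (114710009 to 114927437, plus strand; ENSG00000148737.16_2) and TCF7 on chromosome 5 (133450402 to 133487556, plus strand; ENSG00000081059.19_2). The TCF7 locus overlaps SKP1 on the opposite strand over 2931 bases, and SKP1 was far more abundant, at 11.0 and 14.5, so the low TCF7 values are uncertain.

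The 4 measured feedback genes of the set summed to an FPKM of 11.8 with control shRNA and 19.1 with LAST shRNA. AXIN2 and ZNRF3 made up 88.3% of the difference. All 4 had a log2 ratio above 0, as did 51.3% of all records. Of 6 measured Wnt inhibitors outside the set, ratios were above 0 for 4 and below 0 for 2, DKK1 (-0.09) and NKD2 (-0.50). AXIN2, a close relative of AXIN1 that is induced by beta-catenin and rebuilds the destruction complex, was at 4.01 with control shRNA and 7.60 with LAST shRNA (0.78). It moved from above 42.6% of all records to above 61.2%. The ratio was reached by 4.05% of all records (463 records). AXIN2 (ENSG00000168646.12_2; hg19 chromosome 17, 63524681 to 63557765) is on the minus strand. Its longest coding transcript has 11 exons, of which the largest holds 36.2%. In GENCODE a further protein-coding locus, AC004805.1, overlaps it on the same strand over 23546 bases and was not analysed here. Among records whose largest exon holds under 50% of the transcript, 3.89% were higher and 3.11% were lower.

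ZNRF3, a membrane ubiquitin ligase that removes Frizzled receptors from the cell surface, was at 2.11 with control shRNA and 4.99 with LAST shRNA (0.94). This was the highest ratio of the set, and 2.99% of all records (342 records) reached it. ZNRF3 (ENSG00000183579.15_2; hg19 chromosome 22, 29279580 to 29453475) is on the plus strand, and the largest of 9 exons holds 57.1% of its longest coding transcript. It is therefore not among the records with a largest exon under 50%, where higher genes were rarer (3.89%) than over all records (6.8%). ZNRF3 and AXIN2 both belong to the level range where the mean FPKM of the 2 libraries is from 2 to 8. In that range 7.21% of 4355 records were higher and 6.18% were lower, and 3.58% had a ratio as high as that of ZNRF3 and 4.68% as high as that of AXIN2. Ratios of this size were hence uncommon but present in 156 and 204 records of like level.

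RNF43, the close relative of ZNRF3 with the same action on Frizzled, was at 5.11 with control shRNA and 5.73 with LAST shRNA (0.14). RNF43 was thus more abundant than ZNRF3 in both libraries, by 2.42-fold with control shRNA and by 1.15-fold with LAST shRNA. NKD1, an inhibitor that binds Dishevelled, was the weakest gene of the set, at 0.539 and 0.778 (0.21), above only 4.29% and 8.25% of all records. Its FPKM stayed under 1 in both libraries, where the pseudocount of 1 compresses a 1.44-fold difference, and 93.9% of its 17105-base annotated transcript is a single exon. RNF43 (ENSG00000108375.12_2; hg19 chromosome 17, 56429861 to 56494956) is on the minus strand and NKD1 (ENSG00000140807.6_2; hg19 chromosome 16, 50582241 to 50683160) is on the plus strand. The RNF43 locus overlaps SUPT4H1, at 35.6 and 33.4, on the same strand over 594 bases. In GENCODE the protein-coding loci AC004687.2 and AC008575.1, not analysed here, overlap RNF43 over 65096 bases and APC over 19027 bases on the same strand, so reads of these pairs, as of AXIN2 and AC004805.1, can be hard to separate.

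**Figure D2:**
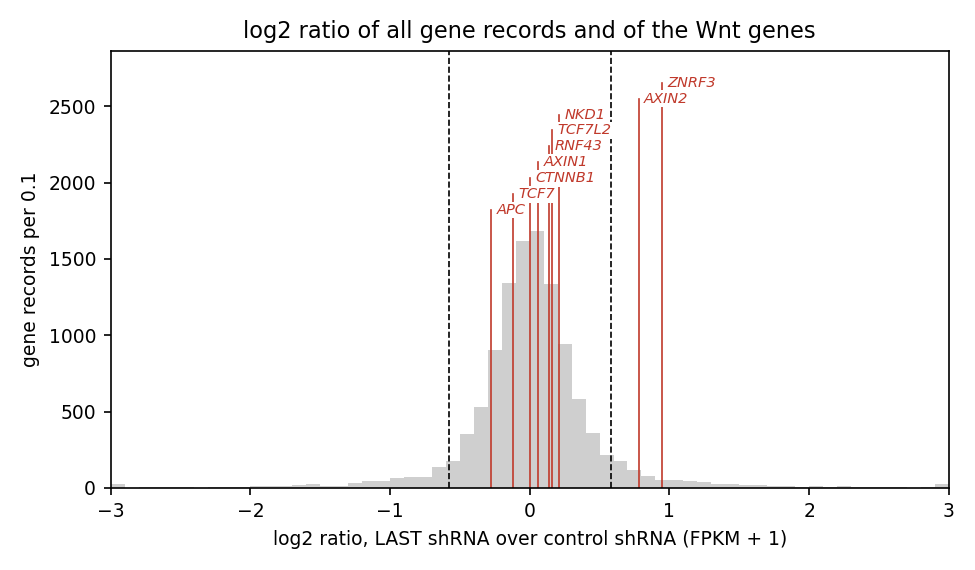
Number of gene records per 0.1 of log2 ratio (grey bars, 11420 records, values beyond 3 in either direction counted in the end bars), with the 9 Wnt pathway genes as red lines whose heights only separate the names, and the threshold of 0.58 in each direction as dashed lines. AXIN2 (0.78) and ZNRF3 (0.94) lie beyond the upper dashed line, and the other 7 lie in the central peak between -0.28 and 0.21.

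Because FPKM is scaled to length, related genes can be set side by side, though the values depend on the transcript lengths that were assumed. AXIN2 made up 55.5% of the axin FPKM in the control library and 69.0% in the LAST shRNA library, and the sum was 7.24 and 11.0, a 1.52-fold difference that came almost wholly from AXIN2. ZNRF3 made up 29.2% and 46.5% of the sum with RNF43, and that sum was 7.22 and 10.7, or 1.48-fold higher with LAST shRNA. The gene that differed was the more abundant axin but the less abundant ligase of the control library. NKD2, the relative of NKD1, was at 3.96 and 2.50 (-0.50), so that the NKD sum was lower with LAST shRNA, at 4.50 against 3.28, although NKD1 was higher in value.

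**Figure D3:**
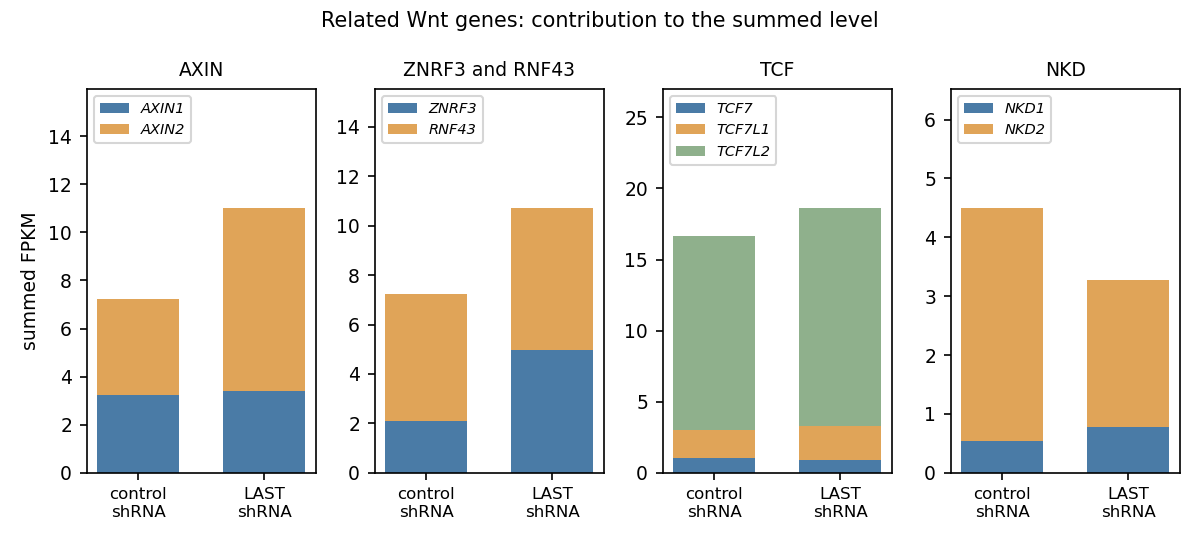
Summed FPKM of related Wnt genes in the control shRNA and LAST shRNA libraries, stacked by gene (1 library per bar, no error bars, each panel with its own axis from 0). AXIN2 and ZNRF3 widen their part of the bar with LAST shRNA, while the TCF bar keeps its composition.

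Other genes of the pathway were described from 8 further lists, which shared no member of the set and held 99 genes with a record in all. Of these 99 genes 6 were higher (6.06%) and 7 were lower (7.07%), close to the shares of 6.8% and 5.88% over all records, and the median log2 ratio was -0.01. At the level of the ligands, 8 of 25 genes were measured and 1 was higher (12.5%). That gene was WNT9A, at 2.89 with control shRNA and 5.03 with LAST shRNA (0.63). The largest exon of WNT9A holds 84.2% of its longest coding transcript. WNT3 was at 1.11 and 0.934 (-0.13), and WLS, the carrier that brings Wnt proteins to the cell surface, was at 6.08 and 7.41 (0.25). No R-spondin, the ligand class that blocks ZNRF3 and RNF43, had a record.

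Of 12 measured receptors and co-receptors 2 were higher (16.7%) and 1 was lower (8.33%), against 6.8% and 5.88% over all records. FZD6 was at 12.3 with control shRNA and 19.0 with LAST shRNA (0.59), just past the threshold. FZD5 was at 3.19 and 0.00875, and FZD1 was listed at 0 with control shRNA and at 1.46 with LAST shRNA. Both of these have 95.5% or more of the transcript in a single exon, and a value at or near 0 can be a failed estimate, so no fold is given. The co-receptor LRP5 was at 11.3 and 11.1 (-0.03) and ROR2 at 2.83 and 2.94 (0.04).

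Of 22 kinases and partners of the destruction complex 1 was higher (4.55%) and 1 was lower, shares near those over all records, and the median was -0.02. CSNK1A1, the CK1 that phosphorylates beta-catenin first, was at 21.0 with control shRNA and 20.7 with LAST shRNA (-0.02). TNKS, a tankyrase that marks axin for degradation, was at 6.07 and 6.13 (0.01). RNF146, the ubiquitin ligase that acts after tankyrase on axin, was at 0.748 and 2.34 (0.93), and CSNK1G1 was at 5.03 and 2.92 (-0.62). The largest exon holds 73.9% of the longest coding transcript of RNF146 and 79.1% of that of CSNK1G1. Genes past the threshold were rarer among records with a largest exon under 50%, at 3.89% higher and 3.11% lower. Among 18 nuclear co-factors 0 were higher and 1 was lower (5.56%, against 5.88% over all records). That gene was the deacetylase HDAC1, at 59.3 and 32.0 (-0.87). BCL9L, which bridges beta-catenin to PYGO2, was at 20.02 and 20.34 (0.02), and PYGO2 was at 10.4 and 10.6 (0.02).

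Of 6 measured inhibitors 1 was higher (16.7%, against 6.8% over all records) and 0 were lower. KREMEN1, a receptor for the DKK proteins, was at 1.51 with control shRNA and 5.90 with LAST shRNA (1.46). The largest exon of KREMEN1 holds 79.5% of its longest coding transcript. KREMEN2 was at 2.54 and 2.70 (0.06). DKK1, a secreted inhibitor of LRP5 and LRP6 and itself a Wnt target, was abundant at 90.9 and 85.6 (-0.09). NOTUM, a secreted enzyme that inactivates Wnt ligands and also a target, was at 1.93 and 2.53 (0.27), a value given although the rule for named genes did not take it.

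The further Wnt targets did not go one way. Of 16 measured, 1 was higher (6.25%) and 3 were lower (18.75%), against 6.8% and 5.88% over all records. Log2 ratios were above 0 for 8 and below 0 for 8. MYC was at 48.3 with control shRNA and 141 with LAST shRNA (1.53). In replicated measurements of HCT116 cells, however, the study saw no change of MYC mRNA when LAST was depleted, and none of its protein. The higher MYC value here comes from 1 library per group and conflicts with that result, so it cannot be taken as an effect of LAST depletion. CCND1, cyclin D1, was at 216 and 126 (-0.78) and SOX9 at 24.6 and 16.1 (-0.59). The largest exon holds 77.9% of the longest coding transcript of CCND1 and 73.1% of that of SOX9. Among records with a largest exon under 50%, lower genes were rarer, at 3.11% against 5.88% over all records. The study picked SOX9 from this same sequencing as an mRNA lowered with LAST shRNA, so the direction of SOX9 is no independent evidence. It had found CCND1 lowered by real-time RT-PCR, and its heatmap of this sequencing shows CCND1 too. The study reported shorter half-lives of both mRNAs after LAST knockdown. Whether their lower values here have to do with Wnt activity was not tested. SOX4, a gene with 1 exon, was at 24.1 and 1.82 (-3.16). EPHB2, a receptor that positions crypt cells, was at 1.18 and 1.17 (-0.01). AXIN2 and ZNRF3 at higher values were thus found beside CCND1 and SOX9 at lower ones, and LGR5, SP5 and LEF1 had no record.

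Beta-catenin also links cadherins to the cytoskeleton. Of 10 adhesion genes 0 were higher and 1 was lower (10%, against 5.88% over all records). That gene was VCL, vinculin, at 44.9 with control shRNA and 24.2 with LAST shRNA (-0.87), while LIMA1 was at 30.7 and 31.4 (0.03) and MLLT4, afadin, at 5.65 and 5.32 (-0.07). In the planar polarity branch, which does not use beta-catenin, 0 of 11 genes passed the threshold. Over all records 6.8% were higher and 5.88% lower, and with so few genes no contrast between branches is drawn. PRICKLE3 was at 2.92 and 4.22 (0.41), VANGL1 at 7.65 and 6.32 (-0.24), CELSR2 at 2.58 and 2.47 (-0.04) and INVS at 3.26 and 3.22 (-0.01).

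**Figure D4:**
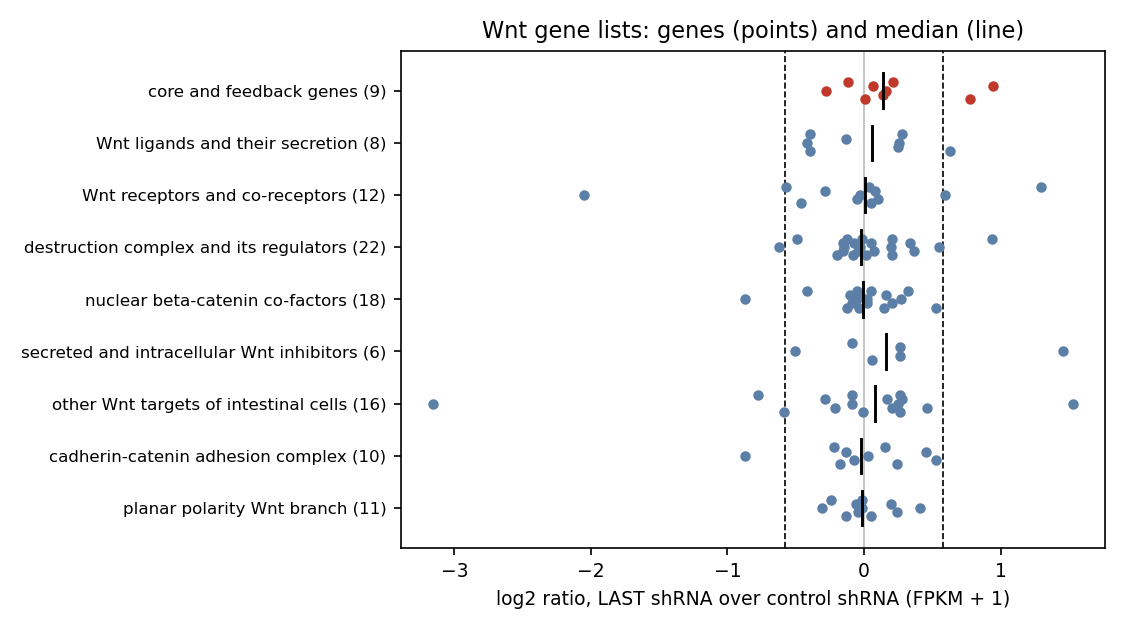
log2 ratio of every measured gene (points) and the median (black line) for the core and feedback genes and for 8 further Wnt gene lists, with the number of measured genes in parentheses and the threshold of 0.58 in each direction as dashed lines. Medians of the 8 further lists lie between -0.02 and 0.16, and the points beyond the dashed lines fall on both sides.

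The libraries were epithelial by their markers. All records summed to an FPKM of 154798 in the control library and 155390 in the LAST shRNA library, and the number of reads behind them is unknown. The epithelial markers EPCAM (137 and 139) and KRT18 (271 and 294) were abundant, CDX2 was at 1.58 and 1.02, and KRT20, a marker of mature colonocytes, was at 0.767 and 3.62 (1.39). VIL1, LGALS4 and CEACAM5 had no record. Of 7 stromal markers COL1A1 (1.32 and 1.90) and ACTA2 (0.919 and 1.25) had a record, and of 7 blood and endothelial markers only CD68 did (1.58 and 3.26). Their part in the Wnt gene values was not tested. LAST, the targeted RNA, is noncoding and was not analysed here.

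The promoter windows of the set were searched for the TCF motif CTTTGAT on both strands in RefSeq sequence of GRCh38.p14, from 250 bases before to 50 bases after each start site. Windows were given for 6 of the 10 genes (11 windows), none of which held the motif, and 2.62% of all 35116 windows did. AXIN2, ZNRF3, NKD1 and ASCL2 were not among the 6, so the search cannot bear on the 2 genes that were higher. At a share of 2.62%, finding no motif in 11 windows was likely for any genes, so no conclusion is drawn.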

How the data were processed

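HCT116 cells received control shRNA or LAST shRNA by lentivirus, and total RNA gave 1 library per group with a KAPA stranded kit. According to the submitters' processing notes, reads went through cutadapt, FastQC, HISAT2 and StringTie on hg19, while versions, settings and use of strand are not stated. The values deposited by the authors are FPKM per gene. The higher value of every record was at least 0.5. Ratios of low values showed no steps of whole reads (the most frequent ratio, at 4 decimals, occurred 2 times among 991 records with both values between 0 and 1), and without counts no error from depth can be given.

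Groups followed the library titles. log2 ratios used a pseudocount of 1 with no further scaling, and the threshold was 0.58. With 1 library per group no test was made. The set and the lists were chosen with earlier results of these data known. Named genes were all members, up to 4 genes past the threshold (where none passed, the 2 largest) and the 2 smallest ratios per list at an FPKM of at least 1 in either library, the Wnt targets MYC, CCND1 and SOX9, and records that overlap a member. NOTUM, NKD2, TCF7L1 and CDX2 were added after their values were seen. Exons came from GENCODE release 29 (GRCh38), joined by gene identifier for 11314 records (99.1%), and positions are hg19. Alternatives were 2 other pseudocounts, 2 filters at an FPKM of 1, 3 scalings, a threshold of 1 and a limit on the largest exon. Counting of genes past the threshold was tested on simulated data with little noise and with genes above the control levels of AXIN2 and ZNRF3. That test checked the counting only and does not bear on the calls of these genes. Python 3.11.15, numpy 2.4.6, pandas 2.3.3, Biopython 1.88 and matplotlib 3.10.9 were used.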

Additional observations from a re-analysis of the deposited data

How the results depend on the processing

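The 9 genes kept their side of the threshold under pseudocounts of 0.1 and 0.5, a median ratio of 0, TPM and equal upper quartiles. AXIN2 ranged from 0.77 to 0.91 and ZNRF3 from 0.94 to 1.20. CTNNB1 stayed within 0.01 of 0, on either side of it. At a threshold of 1, 0 genes of the set were higher, and of all records 318 were higher and 286 lower. With the largest exon under 50% of the transcript, 4 genes of the set were left, of which 1 (AXIN2) was higher, and 198 of 5088 records were higher and 158 lower. Over all records 1242 were higher and 999 lower with a pseudocount of 0.1, and 1198 and 978 with TPM, against 777 and 672. The library sums were nearly alike (154798 and 155390). Rescaling to TPM raised all values before the pseudocount of 1 was added, so it acted much like a smaller pseudocount. No paired analysis was possible because each group has 1 library. The read depth is unknown, so the error of low values such as those of NKD1 and TCF7 cannot be given.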
